A study of Mus musculus with 4 samples.

Results

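Mitosis and kinetochore genes were compared between tdTomato-positive cells of control and *Dnmt1* KO embryos, which had been sorted from the E14.5 basal telencephalon. The 46 genes were taken by symbol, cover 7 classes from the mitotic kinases to the condensin subunits, and were found among the 56883 genes of the deposited table. All 46 averaged 10 or more normalized counts over the 4 libraries and were therefore among the 14323 genes tested. Control cells carried *Sst-Cre* and the *tdTomato* reporter (*Sst-Cre/tdTomato*), and *Dnmt1* KO cells carried the same alleles together with *Dnmt1* alleles flanked by loxP sites (*Sst-Cre/tdTomato/Dnmt1 loxP2*). Total RNA was sequenced in 2 libraries per genotype, each made from a pool of several embryos on a C57BL/6J background, with 50000 cells pooled per genotype. Because Cre is expressed from the *Sst* locus in postmitotic SST+ cells, recombination is directed to cells that have left the cell cycle. The values are whole reads per gene divided by 1 size factor per library, called normalized counts below. Each spread describes pools of embryos and not single embryos.

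A dividing cell enters mitosis when CDK1, bound by a cyclin, becomes active. It then condenses its chromosomes, builds a spindle and attaches each chromosome through its kinetochore, the protein plate that forms on centromeric chromatin. The spindle checkpoint holds the cell until every kinetochore is attached, after which a ubiquitin ligase, the anaphase promoting complex, marks cyclins and the inhibitor of separase for destruction. In the ganglionic eminences these genes are used by radial glia and other progenitors of the ventricular and subventricular zones, whereas interneurons that migrate away no longer divide. Many mitotic promoters hold a short element called CHR (cell cycle genes homology region), which is bound by the MuvB complex, and CCAAT boxes, which are bound by NF-Y.

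The promoters of 4 genes are shown because they hold both elements and belong to the genes with the smallest adjusted p among those that do. Sequences are those that RefSeq gives for the mouse build GRCm38.p6, and each was found once in GRCm39, whose coordinates are used. Each runs 5′ to 3′ on the strand of the gene, from 150 bases before to 30 bases after the annotated start. Capitals mark CHR (TTTGAA), its variant TTCGAA and the CCAAT box on either strand, so that TTCAAA and ATTGG are matches read from the opposite strand. The *Mki67* sequence lies at chr7:135318079-135318258 on the minus strand and that of *Prc1* at chr7:79944049-79944228 on the plus strand. That of *Top2a* lies at chr11:98914986-98915165 and that of *Racgap1* at chr15:99549508-99549687, both on the minus strand.
Mki67: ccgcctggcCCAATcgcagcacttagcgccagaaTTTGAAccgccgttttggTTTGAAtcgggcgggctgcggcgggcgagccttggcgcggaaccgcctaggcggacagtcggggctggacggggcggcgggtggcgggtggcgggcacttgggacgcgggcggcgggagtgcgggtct
Prc1: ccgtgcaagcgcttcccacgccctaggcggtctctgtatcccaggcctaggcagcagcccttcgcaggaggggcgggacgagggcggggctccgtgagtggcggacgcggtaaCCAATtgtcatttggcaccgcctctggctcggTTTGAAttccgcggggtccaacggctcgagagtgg
Top2a: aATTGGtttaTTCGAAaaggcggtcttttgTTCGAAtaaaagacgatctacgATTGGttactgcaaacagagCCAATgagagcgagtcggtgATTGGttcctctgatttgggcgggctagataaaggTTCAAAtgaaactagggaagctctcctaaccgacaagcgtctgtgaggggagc
Racgap1: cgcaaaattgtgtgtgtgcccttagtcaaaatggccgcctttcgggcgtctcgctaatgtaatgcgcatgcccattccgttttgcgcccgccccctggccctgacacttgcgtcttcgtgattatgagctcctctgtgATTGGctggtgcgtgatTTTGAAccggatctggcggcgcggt
In *Prc1* and *Racgap1*, 1 CCAAT box stood upstream of 1 CHR, which lay close to the start. The stretch of *Mki67* held 2 CHR further upstream, and that of *Top2a* held 4 CCAAT boxes beside 3 matches to CHR or its variant.

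Recovered reads ranged from 6970247 to 8376711 per library. The targeted gene, *Dnmt1*, had 2238 and 2341 normalized counts in control and 2164 and 2210.3 in *Dnmt1* KO libraries (adjusted p = 0.461, limma). These values cover the whole gene, and reads on the floxed exons were not measured separately. All 12 genes listed for SST interneurons of the medial ganglionic eminence had reads, and their sum in *Dnmt1* KO libraries was 148% of control. Genes of other cell types had reads as well, so this does not test the purity of the sort. *Sst* itself stood at 5580.4 and 5963 normalized counts in control and 8303 and 7825 in *Dnmt1* KO libraries.

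As a group, mitosis and kinetochore genes were lower in *Dnmt1* KO cells. Of every 10000 reads, 22.6 and 22.9 came from the 46 genes in control and 14.9 and 15.5 in *Dnmt1* KO libraries. Their summed normalized count was 16931 and 16990 in control and 11394 and 11793 in *Dnmt1* KO libraries, that is, 31.6% lower on average. Without *Mki67* and *Top2a*, which contribute the most reads, the sums were 12796 and 12910 against 8488 and 8916. The median gene of the group had 203 and 211 normalized counts in control against 135 and 132 in *Dnmt1* KO libraries. In bulk RNA, fewer cells of a type and less RNA per cell cannot be told apart.

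For all 46 genes, both *Dnmt1* KO libraries lay below both control libraries, as they did for 29.0% of all genes tested, and for 0 of the 46 did both lie above, as for 28.4% of all genes tested. With limma and Benjamini-Hochberg adjustment, 39 of the 46 fell with an adjusted p below 0.05, against a background of 8.99% of all genes tested that fell, and 0 rose, against a background of 8.3%. The genes that did not pass were *Mad2l1*, *Cenpa*, *Spc24*, *Spc25*, *Birc5*, *Ncapd2* and *Ncaph*. Of all 46, 43 had an unadjusted p below 0.05. The median log2 fold change (log2FC, *Dnmt1* KO minus control) of the 46 genes was -0.66, with a range of -1.26 for *Aurkb* to -0.18 for *Ncapd2*, while the median of all genes tested was -0.0033. DESeq2's Wald test on recovered reads, with Benjamini-Hochberg adjustment, called 23 of the 46 lower, against 5.17% of 13212 genes with an adjusted p, and 0 higher. The same 23 were called by limma, edgeR and limma-voom. Limma called 25 of the 46 lower without control replicate 1 and 26 without control replicate 2, and without the variance trend it called 0 of all genes tested, with 39 of the 46 at an unadjusted p below 0.05.

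**Figure D1:**
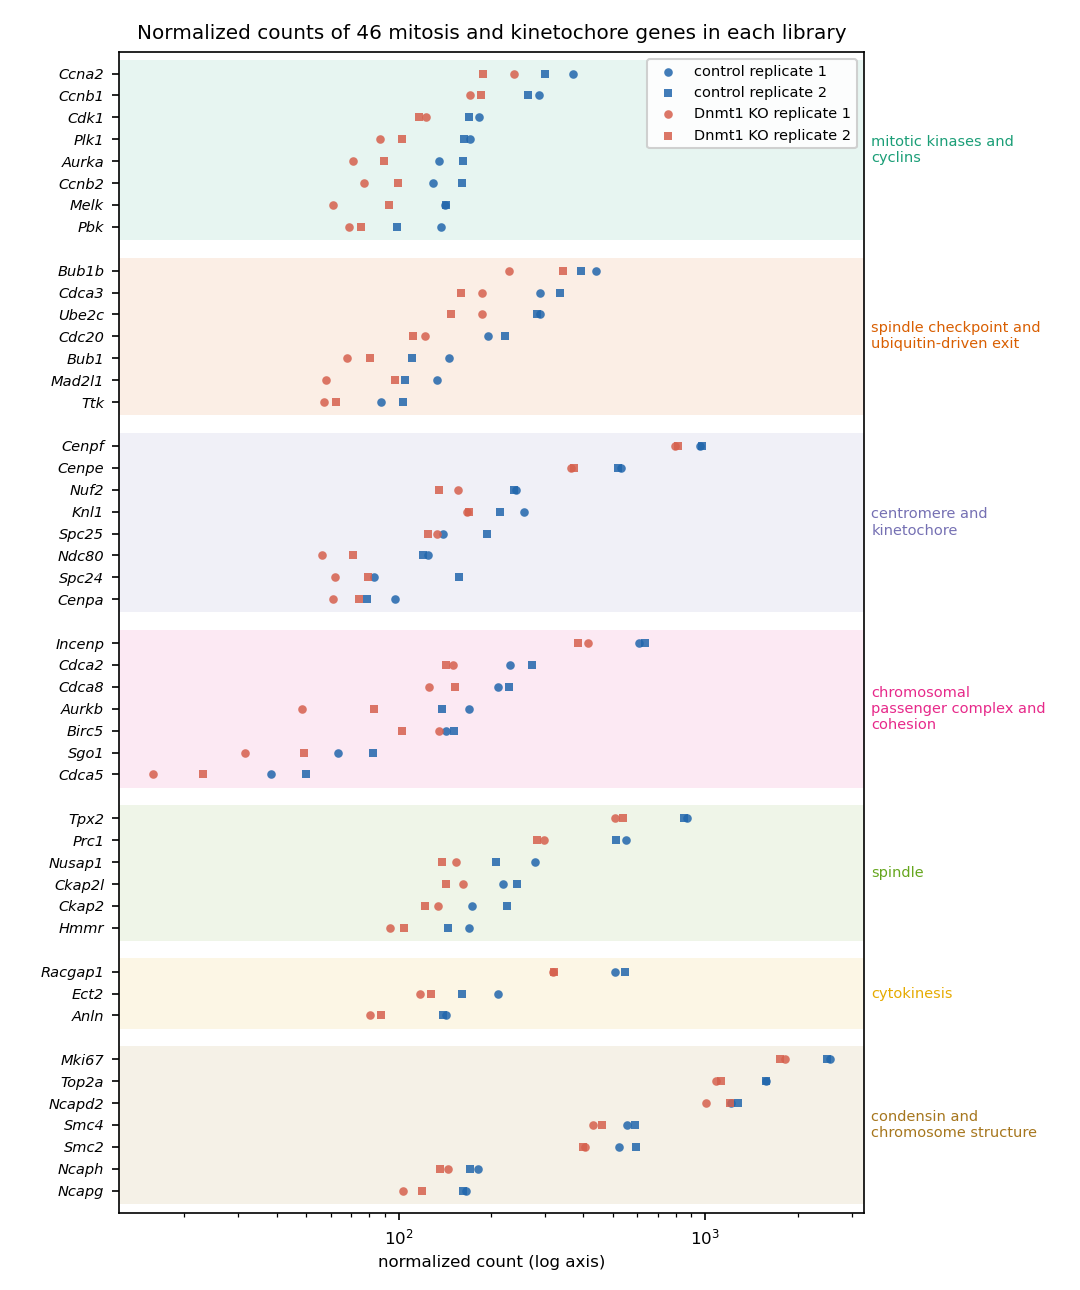
Normalized counts (log axis) of the 46 mitosis and kinetochore genes in the 2 control libraries (blue) and the 2 *Dnmt1* KO libraries (red), in 7 classes and, within a class, in order of the control mean. Every red symbol lies left of both blue symbols of its gene, with narrow gaps for *Cenpa*, *Spc24*, *Spc25*, *Birc5*, *Mad2l1* and *Ncapd2*.

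In the plot of normalized counts by library, levels spread from *Cdca5*, with a mean of 31.8 over the 4 libraries, to *Mki67* with 2158. The replicates of one genotype stood close together for most genes, with a median log2 ratio of 0.16 in size between the control libraries and of 0.15 between the *Dnmt1* KO libraries. The widest gap between control libraries was 0.92, for *Spc24*, and the widest between *Dnmt1* KO libraries was 0.78, for *Aurkb*. Standard errors of the log2FC values had a median of 0.15, and 11 genes had one below 0.1. The 11 genes with a control mean of at least 500 had a median log2FC of -0.51, and the 35 genes below that level had one of -0.69.

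All 8 mitotic kinases and cyclins fell, with a median log2FC of -0.70 and a summed count at 61.3% of control. *Cdk1*, the kinase that drives entry into mitosis, was counted at 183 and 169 in control and at 123 and 117 in *Dnmt1* KO libraries, a log2FC of -0.55 (SE 0.15, adjusted p = 0.0172, limma). The 3 cyclin genes fell as well. *Ccna2*, cyclin A2, had 370.5 and 299 normalized counts in control and 239 and 188 in *Dnmt1* KO libraries. *Ccnb1*, cyclin B1, had 286 and 263 against 171 and 186, and *Ccnb2*, cyclin B2, had 129.8 and 161 against 76.9 and 99.4. Their log2FC values were -0.65, -0.62 and -0.72 (adjusted p = 0.00432, 0.00266 and 0.0141, limma). Reads on the processed copies of the cyclin B genes, *Ccnb1-ps* and *Ccnb2-ps*, averaged 1.47 and 0.47 normalized counts. *Aurka*, the Aurora kinase of spindle poles, had 135 and 162 in control and 71.0 and 89.6 in *Dnmt1* KO libraries, with a log2FC of -0.88 (adjusted p = 0.00357, limma). *Plk1*, the Polo-like kinase that acts from centrosome maturation to cytokinesis, fell to 94.8 ± 11.2 normalized counts (SD, n = 2) from 167 ± 5.36 in control, with a log2FC of -0.82 (adjusted p = 0.00264, limma). *Melk* and *Pbk* encode kinases of dividing progenitors. *Melk* had 141 and 143 in control and 61.2 and 92.9 in *Dnmt1* KO libraries, and *Pbk* had 138 and 99.0 against 69.0 and 75.4, with log2FC values of -0.91 and -0.69. *Ccnb1* and *Plk1* kept an adjusted p below 0.05 with each library left out. Without control replicate 1, limma's adjusted p was 0.117 for *Cdk1*, 0.0718 for *Ccna2* and 0.278 for *Pbk*, and without control replicate 2 it was 0.0575 for *Cdk1*, 0.164 for *Ccnb2*, 0.0648 for *Aurka* and 0.0521 for *Melk*. Without a *Dnmt1* KO library, it was 0.0646 for *Ccnb2* (replicate 1 left out) and 0.0515 for *Cdk1* (replicate 2 left out). By DESeq2, *Cdk1*, *Ccnb2* and *Pbk* did not pass (adjusted p = 0.136, 0.0832 and 0.139).

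Of the 7 genes of the spindle checkpoint and of exit from mitosis by ubiquitin, 6 fell, and the median log2FC was -0.77 with a summed count at 61.0% of control. *Cdc20*, the activator of the anaphase promoting complex that the checkpoint inhibits, had 195 and 222 normalized counts in control and 122 and 111 in *Dnmt1* KO libraries, a log2FC of -0.83 (SE 0.15, adjusted p = 0.00111, limma). *Ube2c*, the ubiquitin-conjugating enzyme of that complex, had 289.9 and 283 against 186 and 149 (-0.78, adjusted p = 0.000907, limma). *Cdca3*, whose product helps to trigger mitotic entry through the destruction of WEE1, had 289 and 337 against 186 and 159.5 (-0.85, adjusted p = 0.00032, limma). These 3 genes kept an adjusted p below 0.05 with each library left out.

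Of the 4 checkpoint genes, 3 fell. *Bub1*, which recruits other checkpoint proteins to the kinetochore, had 146 and 110.3 normalized counts in control and 68.1 and 80.9 in *Dnmt1* KO libraries (log2FC -0.77, adjusted p = 0.0134, limma). *Bub1b*, which encodes BUBR1, a subunit of the complex that inhibits CDC20, had 440.3 and 393 against 229.8 and 343, so that the *Dnmt1* KO libraries differed from each other by more than the control libraries did (adjusted p = 0.0149, limma). *Ttk*, the kinase MPS1 at the top of the checkpoint, had 87.7 and 103 against 57.2 and 62.3 (log2FC -0.66, adjusted p = 0.0362, limma). *Mad2l1*, the checkpoint protein MAD2, had 133 and 105 against 58.2 and 97.2, and its log2FC of -0.65 (SE 0.23) gave an adjusted p of 0.0679 in limma. The log2FC of *Mad2l1* was -1.01 without *Dnmt1* KO replicate 2 and -0.28 without *Dnmt1* KO replicate 1. Without control replicate 1, the adjusted p was 0.168 for *Bub1*, 0.12 for *Bub1b* and 0.0763 for *Ttk*. Without control replicate 2 it was 0.239 for *Ttk*, and without *Dnmt1* KO replicate 1 it was 0.152 for *Bub1b*, at a log2FC of -0.28, and 0.0975 for *Ttk*. Of the 4, DESeq2 called *Bub1b* (adjusted p = 0.0414) and neither *Bub1* (0.0753) nor *Ttk* (0.224) nor *Mad2l1* (0.268).

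Of 8 centromere and kinetochore genes, 5 fell, and the summed count stood at 73.8% of control with a median log2FC of -0.49. The NDC80 complex, the coupler between kinetochore and microtubules, is made of 4 subunits, of which *Ndc80* and *Nuf2* fell and *Spc24* and *Spc25* did not pass the test. *Ndc80* had 124 and 120.5 normalized counts in control and 56.2 and 71.0 in *Dnmt1* KO libraries, a log2FC of -0.94 (SE 0.19, adjusted p = 0.00345, limma). *Nuf2*, its partner at the microtubule end of the complex, had 242 and 238 against 156 and 135 (-0.72, adjusted p = 0.0017, limma). *Spc24* and *Spc25* form the end that holds on to the centromere. *Spc24* had 83.2 and 157 against 62.1 and 79.8, and *Spc25* had 139.6 and 194 against 133 and 125. For both, control replicate 2 stood well above the other 3 libraries, and control replicate 1 stood only just above the higher *Dnmt1* KO library. Their log2FC values were -0.69 and -0.35 (adjusted p = 0.076 and 0.178, limma). The log2FC of *Spc24* was -1.15 and -0.24 without control replicates 1 and 2. It was -0.515 and -0.87 without *Dnmt1* KO replicates 1 and 2.

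Among the other kinetochore genes, *Cenpe*, *Cenpf* and *Knl1* fell and *Cenpa* did not pass. *Cenpe*, the kinesin that moves chromosomes to the spindle equator, had a control mean of 526 ± 7.07 normalized counts (SD, n = 2) and a *Dnmt1* KO mean of 369 ± 4.69, a log2FC of -0.51 (SE 0.09, adjusted p = 0.0011, limma). *Cenpf*, a protein of the outer corona of the kinetochore, had 964 and 976 in control and 796 and 817 in *Dnmt1* KO libraries, 16.8% lower (log2FC -0.27, SE 0.07, adjusted p = 0.016, limma). *Knl1*, the scaffold on which checkpoint proteins gather, had 257 and 213 against 168 and 169 (-0.47, adjusted p = 0.0245, limma). *Cenpa*, the histone H3 variant that marks the centromere, had 97.5 and 78.6 against 61.2 and 74.3, and its log2FC of -0.37 (SE 0.21) gave an adjusted p of 0.258 in limma, above 0.05 also with each library left out. *Cenpf* did not pass without control replicate 1 (adjusted p = 0.0508, limma), control replicate 2 (0.0685) or *Dnmt1* KO replicate 1 (0.0763), and *Knl1* did not pass without control replicate 1 (0.207). Neither passed with DESeq2 (adjusted p = 0.0828 for *Cenpf* and 0.145 for *Knl1*).

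In the chromosomal passenger complex and cohesion class, 6 of 7 genes fell, with a median log2FC of -0.77. The passenger complex corrects faulty attachments and later guides cytokinesis, and consists of the kinase AURKB with INCENP, survivin and borealin. *Aurkb* had the largest fall of all 46 genes, from 169 and 139 normalized counts in control to 48.3 and 83.0 in *Dnmt1* KO libraries, that is, 57.3% lower (log2FC -1.26, SE 0.23, adjusted p = 0.00137, limma). *Incenp*, the scaffold of the complex, had 609 and 638 against 414 and 385 (-0.64, SE 0.09, adjusted p = 0.000133, limma). Borealin, encoded by *Cdca8*, had 210.3 and 229.7 against 125 and 153 (-0.66, adjusted p = 0.00509, limma). Survivin, encoded by *Birc5*, had 143 and 152 against 135 and 103, a log2FC of -0.32 (adjusted p = 0.215, limma). *Dnmt1* KO replicate 1 thus stood close to the control libraries for *Birc5*, while for *Aurkb* it was the lowest library.

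The other genes of the class protect cohesion or remove phosphate groups after mitosis. *Sgo1*, shugoshin, which guards centromeric cohesin, had 63.5 and 82.7 normalized counts in control and 31.6 and 49.2 in *Dnmt1* KO libraries (log2FC -0.86, adjusted p = 0.0386, limma). *Cdca5*, sororin, which stabilizes cohesin on replicated DNA, had the lowest level of the 46, with 43 and 49 reads in control and 16 and 21 reads in *Dnmt1* KO libraries, and a log2FC of -1.16 and an SE of 0.34 (adjusted p = 0.0263, limma). *Cdca2*, a subunit that brings protein phosphatase 1 to anaphase chromosomes, had 231 and 272 normalized counts against 151 and 143 (-0.77, adjusted p = 0.0011, limma). *Aurkb*, *Incenp* and *Cdca2* passed with each library left out. *Cdca5* and *Sgo1* passed only in the fit without *Dnmt1* KO replicate 2, with limma's adjusted p of up to 0.206 and 0.272 in the others, and *Cdca8* did not pass without control replicate 2 (0.0593). DESeq2 did not call *Cdca5* and *Sgo1* (adjusted p = 0.154 and 0.195).

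All 6 spindle genes fell, with a summed count at 60.3% of control. *Tpx2*, which activates AURKA and nucleates microtubules, had 869 and 852 normalized counts in control and 509 and 538 in *Dnmt1* KO libraries, a log2FC of -0.72 and an SE of 0.08 (adjusted p = 1.47e-05, limma, the smallest of the 46). *Prc1*, the cross-linker of antiparallel microtubules in the spindle midzone, had 551 and 511 against 299 and 282, 45.4% lower (-0.87, adjusted p = 1.8e-05, limma). The control libraries differed more for *Nusap1*, a microtubule-bundling protein, with 279 and 208 against 154 and 139 (-0.72, adjusted p = 0.00412, limma). *Hmmr*, a hyaluronan receptor that also organizes spindle poles, had 169 and 145 against 93.7 and 104. *Ckap2* and *Ckap2l* encode related microtubule-associated proteins. *Ckap2* had 174 and 226 against 134 and 122, and *Ckap2l* had 218 and 244 against 163 and 143. The log2FC values of these 3 genes were -0.66, -0.62 and -0.59 (adjusted p = 0.011, 0.0122 and 0.00692, limma). *Nusap1* and *Hmmr* did not pass without control replicate 1 (0.0809 and 0.116), and *Ckap2* and *Ckap2l* did not pass without control replicate 2 (0.172 and 0.0785). *Hmmr*, *Ckap2* and *Ckap2l* did not pass with DESeq2 (adjusted p = 0.0817, 0.0687 and 0.0531).

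All 3 cytokinesis genes fell, with log2FC values of -0.72 for *Racgap1*, -0.74 for *Anln* and -0.58 for *Ect2*. *Racgap1*, a subunit of centralspindlin that positions the cleavage furrow, had 507 and 549 normalized counts in control and 319.6 and 322 in *Dnmt1* KO libraries (adjusted p = 9.06e-05, limma). *Ect2*, the exchange factor that it recruits to activate RhoA, had 210.3 and 161 against 117 and 128 (adjusted p = 0.02, limma). *Anln*, anillin, which links the contractile ring to the membrane, had 143 and 139.9 against 80.9 and 87.4 (adjusted p = 0.0062, limma). Without control replicate 1, the adjusted p was 0.214 for *Ect2*, at a log2FC of -0.39, and 0.053 for *Anln*. With DESeq2 it was 0.104 for *Ect2* and 0.0557 for *Anln*.

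**Figure D2:**
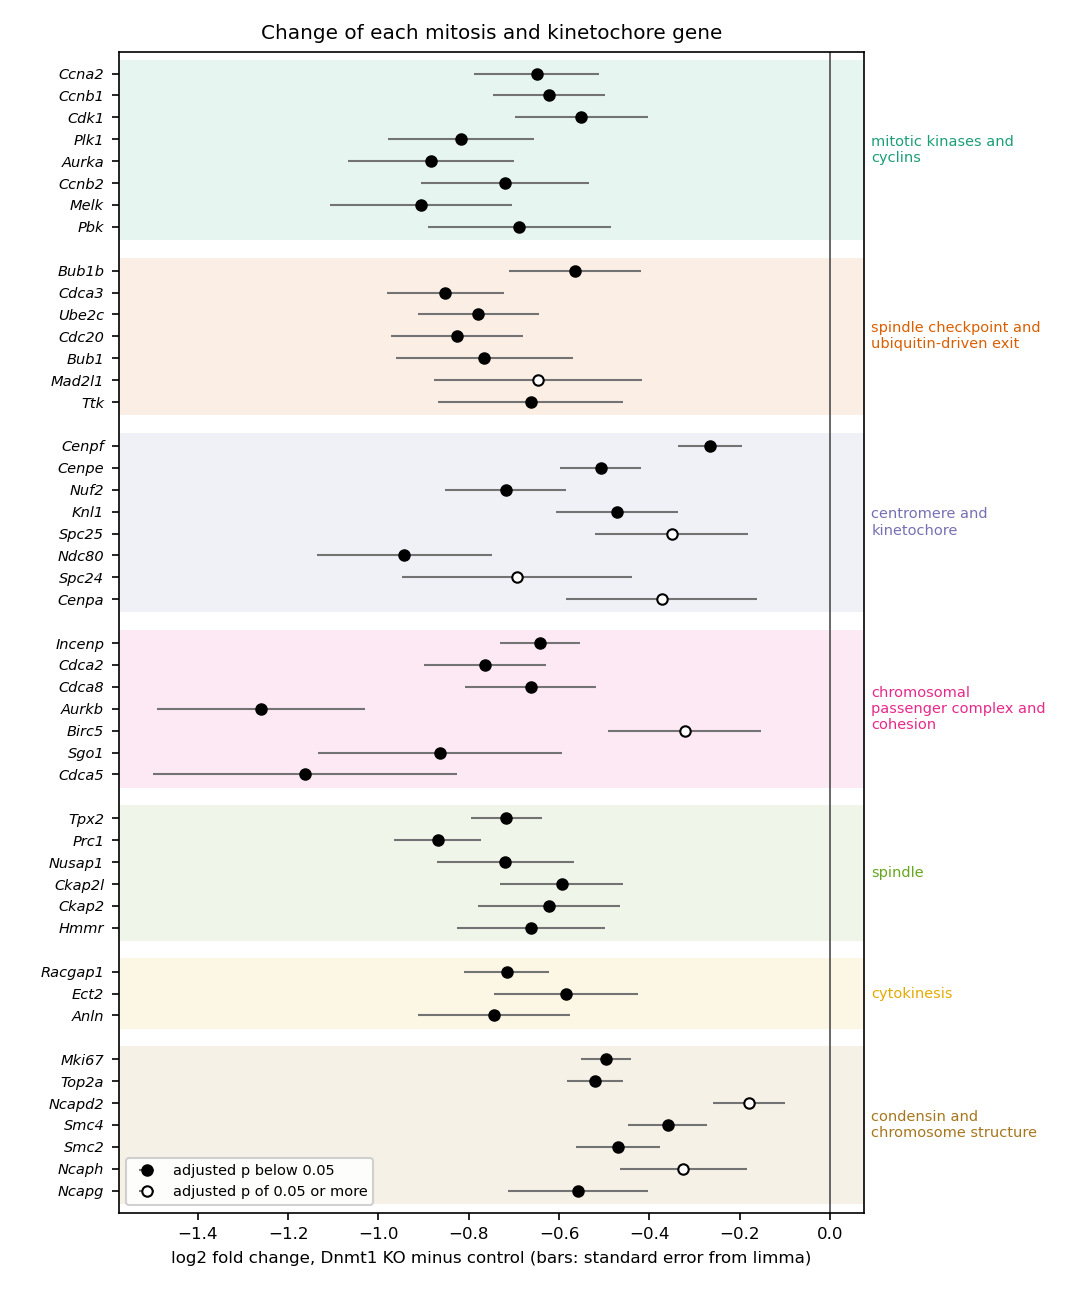
Log2 fold change (log2FC) of each of the 46 genes in *Dnmt1* KO minus control, with its standard error from limma as a bar. Filled symbols have a Benjamini-Hochberg adjusted p below 0.05 and open symbols do not. All 46 lie left of 0, from -1.26 (*Aurkb*) to -0.18 (*Ncapd2*), and 7 symbols are open.

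The class of condensin and chromosome structure held the genes with the most reads, and 5 of its 7 genes fell, with a median log2FC of -0.47 and a summed count at 74.7% of control. *Mki67*, the proliferation marker Ki-67 that coats mitotic chromosomes, had 2553 and 2500.2 normalized counts in control and 1826 and 1755 in *Dnmt1* KO libraries, 29.1% lower (log2FC -0.50, SE 0.06, adjusted p = 1.58e-05, limma). *Top2a*, the topoisomerase that untangles sister chromatids, had 1582 and 1579 against 1080.1 and 1123 (-0.52, adjusted p = 3.49e-05, limma). Both groups of libraries stood far apart for these genes, and both passed with each library left out.

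Condensin I is formed by *Smc2* and *Smc4*, the ATPases it shares with condensin II, and by *Ncapd2*, *Ncapg* and *Ncaph*. *Smc2* had 523 and 593 normalized counts in control and 404 and 399 in *Dnmt1* KO libraries (log2FC -0.47, adjusted p = 0.00266, limma), and *Smc4* had 554 and 589 against 431 and 459 (-0.36, adjusted p = 0.0103, limma). *Ncapg* had 166 and 162 against 104 and 119 (-0.56, adjusted p = 0.0212, limma). *Ncaph*, the kleisin that bridges the ATPase heads, had 182 and 172 against 145 and 137, a log2FC of -0.33 (adjusted p = 0.134, limma). *Ncapd2* had 1212 and 1282 against 1008 and 1201, so that *Dnmt1* KO replicate 2 nearly reached the control libraries (-0.18, adjusted p = 0.142, limma). Without that library the log2FC of *Ncapd2* was -0.31, and without *Dnmt1* KO replicate 1 it was -0.05. *Smc4* did not pass without control replicate 2 (0.0774) or *Dnmt1* KO replicate 1 (0.0516), and *Ncapg* passed only without *Dnmt1* KO replicate 2, with limma's adjusted p of up to 0.105 otherwise. Neither *Smc4* nor *Ncapg* was called by DESeq2 (adjusted p = 0.0641 and 0.157).

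Per kilobase of the transcript with the longest coding sequence, the levels of the 46 genes in control ran from 15.8 normalized counts per kilobase for *Mad2l1* to 301 for *Top2a*. *Ube2c* followed with 296, *Ncapd2* with 247 and *Mki67* with 246, so that *Mki67*, first by reads, was level with genes of far fewer reads. In *Dnmt1* KO libraries *Ncapd2* stood at 219 and *Top2a* at 210.0 normalized counts per kilobase, and *Ube2c* and *Mki67* at 173 and 174. These levels depend on the transcript chosen, and with the longest annotated transcript *Ube2c* had 130.0 in control, while *Top2a* had 283. The genes lay on 16 chromosomes, with 10 on chromosome 2. Their median transcript length of 3504 bases was close to the 3525 of all genes tested.

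Some members share sequence with a gene on the opposite strand. The library kit keeps the strand of the RNA, but the strand setting of the counting is not given in the sources used here, so reads of overlapping genes may not be separated. In the GENCODE annotation of GRCm39, *Cdk1* overlaps *Ank3* (3940.0 normalized counts on average), *Ccna2* overlaps *Exosc9* (388), *Cdca3* overlaps *Usp5* (1060.0), *Ncapg* overlaps *Lcorl* (382) and *Aurka* overlaps *Cstf1* (146) and *Fam210b* (83.0). *Cdca8*, *Cdca2* and *Prc1* overlap genes with 59.4 to 69.7 normalized counts. *Ncapd2* holds the small RNA gene *Scarna10* (747) on its own strand and overlaps *Mrpl51* (167). The values of these genes are uncertain in this respect.

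Genes of the same processes outside the 46 were read from 10 further lists with 165 genes in all, of which 163 were tested. By limma's adjusted p, 54 of them fell, against 8.99% of all genes tested, and 1 rose, against 8.3%. Their median log2FC was -0.39. The number lower was 24 with DESeq2, 26 without control replicate 2 and 32 without control replicate 1. The 8 lists of mitotic genes held 112 tested genes, of which 29 fell and 1 rose at a median of -0.38. Of the 112, 76 had both *Dnmt1* KO libraries below both control libraries, as did 29.0% of all genes tested. For 9 both lay above, as for 28.4% of all genes tested. The lists differed in how many of their genes passed. Mitotic kinesins, the motors of spindle and midzone, had 9 of 12 genes lower with a median log2FC of -0.58 and all 12 of negative sign. The largest fall among them was that of *Kif4*, a chromokinesin, from 262 and 296 normalized counts in control to 159.8 and 165 in *Dnmt1* KO libraries (-0.78, adjusted p = 0.000564, limma). Other spindle, midzone and midbody genes had 7 of 15 lower with a median of -0.58, led by *Cep55*, the midbody protein of abscission (-0.85, adjusted p = 0.00499, limma). DESeq2 called 5 of these kinesins and 4 of these spindle genes lower, and without either control replicate 4 of the spindle genes were called.

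Kinetochore and centromere genes beyond the 46 were read from separate lists, beside the 8.99% of all genes tested that fell by limma. Among 16 other genes of the outer kinetochore and checkpoint, 4 fell with a median of -0.38, and *Spdl1*, which brings dynein to kinetochores, had the largest fall (-0.95, adjusted p = 0.00693 by limma, and 0.0989 without control replicate 2). DESeq2 called 0 of the 16, and limma called 2 without control replicate 1 and 0 without control replicate 2. Of 18 tested genes of the inner centromere network and of CENP-A loading, only *Cenpm* passed, no more than the share of all genes tested. It fell from 41.2 and 50.02 normalized counts in control to 25.6 and 18.6 in *Dnmt1* KO libraries (-1.02, adjusted p = 0.0378, limma). Of the 18 genes, 17 had a negative sign, and the median was -0.46. Most of the 18 had low counts, and the SE of *Cenpm* was 0.32. Few passes therefore do not show that the other genes were unchanged. Without control replicate 2, limma's adjusted p of *Cenpm* was 0.228, and DESeq2 called 0 of the 18. The number of the 18 called lower was 4 without *Dnmt1* KO replicate 1 and 0 without *Dnmt1* KO replicate 2. Entry regulators include MuvB subunits, FOXM1 and the CDC25 phosphatases. *Foxm1* fell (log2FC -0.41, adjusted p = 0.0168 by limma and 0.115 by DESeq2). The MuvB genes *Lin9*, *Lin37*, *Lin52* and *Lin54* did not pass, with log2FC values of 0.05, 0.06, 0.36 and -0.22. *Cdc25a*, *Cdc25b* and *Cdc25c* did not pass either, at -0.41, -0.43 and -0.85 (adjusted p = 0.0541, 0.0637 and 0.0514, limma). Of the 19 entry regulators, 6 were lower, and the median was -0.43. *Haspin*, the histone H3 kinase that places the passenger complex at centromeres, had the largest fall, from 51.9 and 54.1 to 21.7 and 25.1 normalized counts (-1.15, adjusted p = 0.0127 by limma, and 0.0721 and 0.0939 without control replicates 1 and 2). Of the 19 entry regulators, 1 was called by DESeq2, and 1 and 2 by limma without control replicates 1 and 2.

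Further lists included complexes that also act outside mitosis. Of all genes tested, 8.99% fell and 8.3% rose by limma. The 18 tested subunits and regulators of the anaphase promoting complex and separase had a median log2FC of -0.08 with 2 genes lower, *Espl1* and *Anapc13*. That count is close to the share of all genes tested. *Espl1*, separase itself, had 155 and 114 normalized counts in control and 87.8 and 80.9 in *Dnmt1* KO libraries (-0.65, adjusted p = 0.0253 by limma, and 0.256 without control replicate 1). DESeq2 called 0 of the 18, and limma called 0 without control replicate 1 and 1 without control replicate 2 or *Dnmt1* KO replicate 2. Of 12 cohesin genes, 0 fell and 1 rose, close to the share of all genes tested that rose, at a median of 0.04. The gene that rose, *Nipbl*, loads cohesin onto DNA and had 1131 and 1263 against 1533 and 1564 normalized counts (0.37, adjusted p = 0.0013, limma). Among the 3 subunits particular to condensin II, *Ncapg2* fell (-0.54, adjusted p = 0.0357 by limma, and 0.223 without *Dnmt1* KO replicate 1), while *Ncapd3* had a log2FC of -0.30 and *Ncaph2* one of -0.13 (adjusted p = 0.0659 and 0.291, limma). *Ncapg2* passed neither without a control library nor with DESeq2 (adjusted p = 0.21). Earlier phases of the cycle were represented as well. Of 29 DNA replication genes, 16 fell with a median of -0.47, led by *Cdc45* of the replicative helicase (-0.92, adjusted p = 0.0132 by limma, and 0.111 without control replicate 2). Of 22 G1 cyclins and exit regulators, 9 fell with a median of -0.39, and *Ccnd1*, cyclin D1, fell from 331 and 355 to 172 and 156 normalized counts (-1.06, adjusted p = 2.02e-05, limma). DESeq2 called 9 of the replication genes and 5 of the G1 list lower, and without control replicate 2 limma called 9 and 4. No difference between lists was tested.

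**Figure D3:**
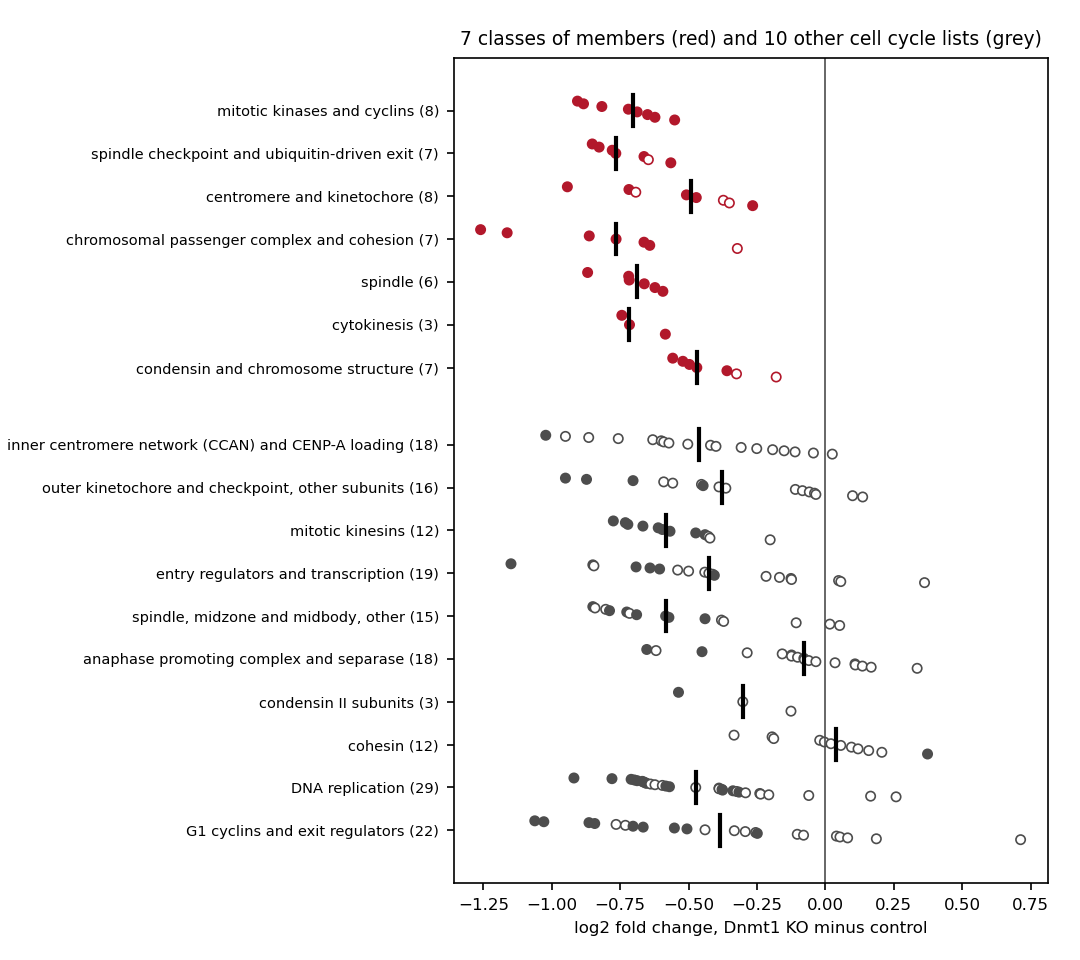
Log2 fold change (log2FC, *Dnmt1* KO minus control) of each gene in the 7 classes of the 46 genes (red) and in the 10 further cell cycle lists (grey), with the number of tested genes in parentheses. Filled symbols have limma's adjusted p below 0.05 and black bars are list medians, which run from -0.77 for the checkpoint class to 0.04 for cohesin.

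Promoter sequences of 300 bases, 250 before and 50 after the start, were given for 38 of the 46 genes, and 8 had none (*Incenp*, *Smc4*, *Tpx2*, *Pbk*, *Ccna2*, *Spc24*, *Cdca2* and *Aurkb*). A gene with more than 1 such sequence, as *Ect2* and *Prc1* among the 38, was counted once, as holding a motif when any of its sequences did. CHR (TTTGAA, both strands) occurred in 28 of the 38 promoters (73.7%), against 20.2% of 27025 genes with such a sequence and 13.9% of the 9982 tested genes with one. The variant TTCGAA occurred in 4 (10.5%, against 1.8% of all). CCAAT (both strands) occurred in 28 (73.7%, against 41.1% of all), and an E2F core, TTTCGC or TTTGGC on either strand, in 10 (26.3%, against 18.6% of all). CHR or its variant stood together with CCAAT in 26 of the 38 promoters (68.4%), against 9.65% of all genes with a promoter and 8.3% of those tested. In the further lists this pair of elements was found in 7 of 11 promoters of mitotic kinesins and 6 of 13 of other spindle genes. It was found in 5 of 14 of entry regulators, 6 of 18 of the inner centromere list and 4 of 13 of the outer kinetochore list. DNA replication genes had it in 4 of 24, G1 genes in 3 of 16 and the anaphase promoting complex and separase list in 2 of 18. Cohesin genes had it in 1 of 7 and condensin II subunits in 0 of 3. Such matches describe letters and not bound sites, and 1 pair of matches of different motifs overlapped in the promoters of the 38 genes.

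**Figure D4:**
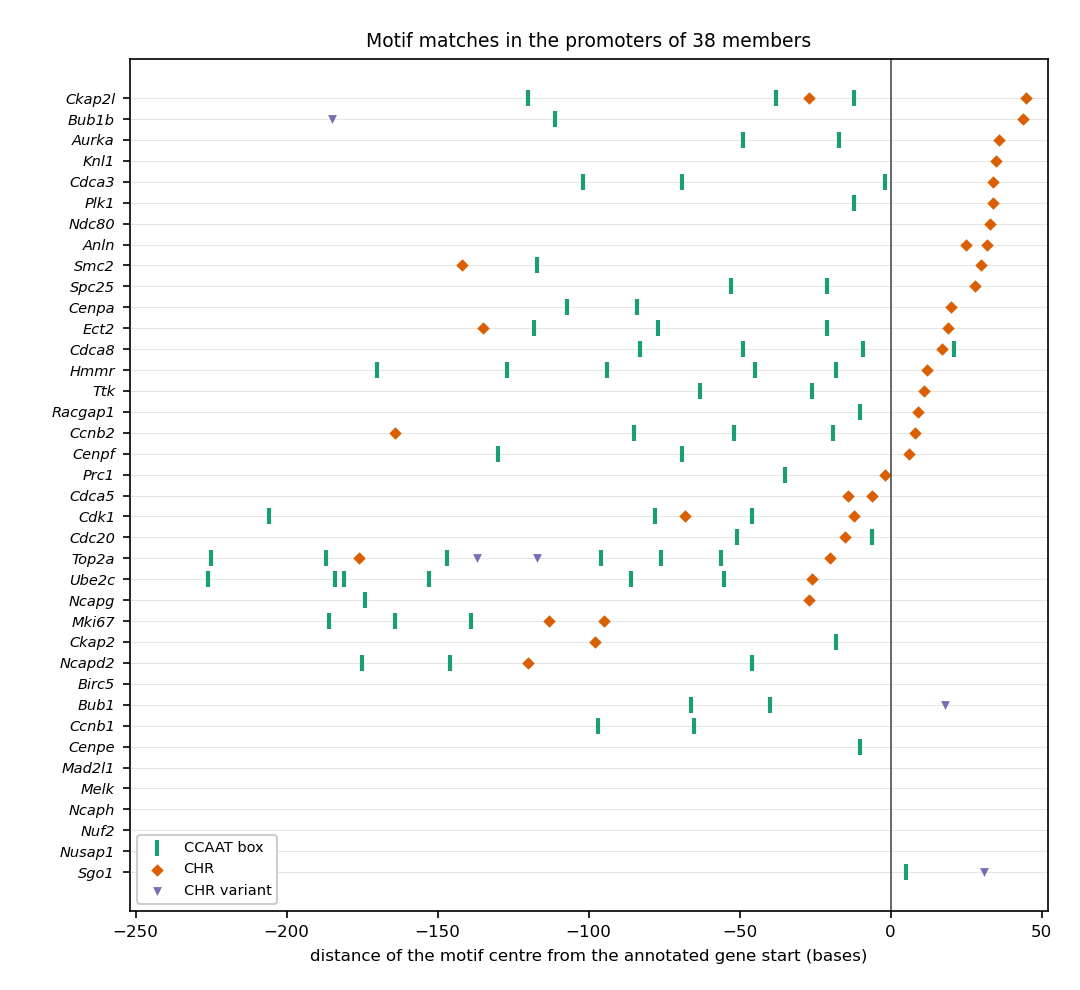
Positions of CCAAT boxes (green bars), CHR (orange diamonds) and the CHR variant (purple triangles) in the promoters of 38 of the 46 genes, as the distance in bases of the motif's centre from the annotated start of the gene, which is at 0, with 1 promoter per gene. Of 37 CHR matches 20 lie between -50 and 30 and 5 between -120 and -31. Of 67 CCAAT matches 24 lie between -50 and 30 and 34 between -120 and -31.

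Positions differed between the elements. Where a gene had 2 overlapping promoter sequences, the first by position was used, so that no site was counted again. Counted from the annotated start, the centre of a CHR match lay at a median of 6. Of the 28 genes with CHR, 19 had at least 1 between -50 and 30 and 4 between -120 and -31. CCAAT matches lay further upstream by their median of -69. Of the 28 genes with CCAAT, 21 had at least 1 between -120 and -31 and 19 between -50 and 30. The 2 windows overlap. Of the 30 genes with CHR or its variant, 27 fell by limma's adjusted p, with a median log2FC of -0.66, and of the 8 genes without either, *Ccnb1*, *Melk*, *Cenpe*, *Nuf2* and *Nusap1* fell and *Mad2l1*, *Birc5* and *Ncaph* did not pass, at a median of -0.64. The 26 genes with CHR or its variant and CCAAT had a median log2FC of -0.64, and 23 of them fell. The 12 without this pair had a median of -0.68, and 9 of them fell. No difference between these groups was tested. Over all tested genes with a promoter, 1594 held CHR or its variant, of which 202 fell (12.7%), while 671 of the other 8388 fell (8.0%). The pair with CCAAT was held by 829, of which 139 fell (16.8%), while 734 of the other 9153 fell (8.02%). Without the 46 genes, 116 of 803 genes with the pair fell (14.4%). These 803 still included cell cycle genes of the further lists.

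Markers of other cells moved with the mitotic genes, while 8.99% of all genes tested fell and 8.3% rose. Of 17 genes of ganglionic eminence progenitors and radial glia, the dividing cells of this tissue, 9 fell and 1 rose, and their summed normalized count was 13271 and 13460 in control and 8105 and 8429 in *Dnmt1* KO libraries, 61.9% of control. *Nes*, the intermediate filament nestin of neural progenitors, had 2881 and 2780 against 1399 and 1368 normalized counts (log2FC -1.03, adjusted p = 1.82e-08, limma). The gene that rose was *Sox2*, a transcription factor of neural stem cells, with 1085 and 1055 against 1429 and 1390 (0.40, adjusted p = 0.00048, limma). Of 11 genes of pallial intermediate progenitors and the excitatory lineage, 9 fell, with sums of 3275 and 3307 in control and 1752 and 1602 in *Dnmt1* KO libraries. *Nes*, *Sox2* and the marker genes named below were chosen after their values were seen.

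Genes of cells outside the neural lineage fell as well. All 8 tested genes of 12 blood genes fell, with sums of 2615 and 2434 in control against 587 and 593 in *Dnmt1* KO libraries. In endothelium and mural cells, 9 of 10 tested genes fell, with sums of 724 and 757 against 309 and 320.1. Of 5 tested genes of fibroblasts and meninges, *Col1a1*, *Col1a2* and *Col3a1* fell, with sums over the list of 305 and 267 against 145 and 152. Of 3 tested genes of microglia and macrophages, *Csf1r* fell, with sums of 92.2 and 115 against 32.6 and 48.1. No gene of these lists was at 0 in all 4 libraries, and the microglial gene *Fcer1g* was at 0 in control replicate 2 and *Dnmt1* KO replicate 1. In the other direction, all 12 genes of the sorted SST cells rose, with sums of 24877 and 24947 in control against 36630 and 37094 in *Dnmt1* KO libraries, and of 10 genes of young neurons *Dcx*, *Map2*, *Nrxn3* and *Syt1* rose and *Gap43* fell. Sums of the 46 mitotic genes at 68.4% of control therefore stood beside progenitor markers at 61.9%, pallial markers at 51.0%, endothelial and mural markers at 42.5%, blood markers at 23.4% and SST cell markers at 148%. The part of these cell types in the lower mitotic counts was not tested.

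**Figure D5:**
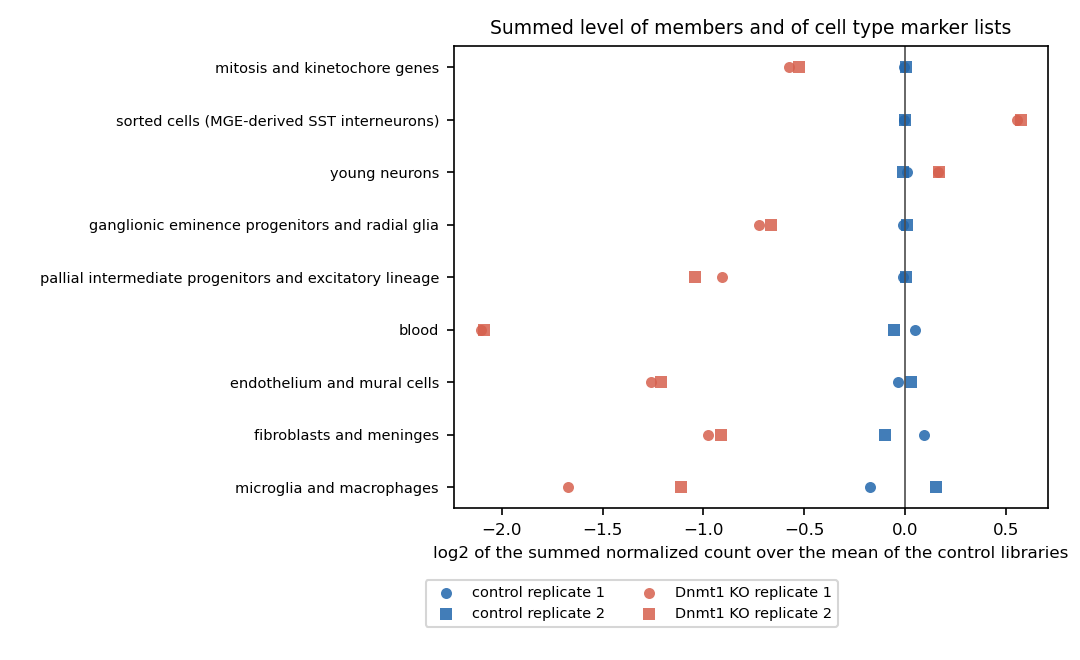
Summed normalized count of the 46 mitosis and kinetochore genes and of 8 cell type marker lists in each library, as log2 of the ratio to the mean of the 2 control libraries (blue, control; red, *Dnmt1* KO). The 46 genes lie at -0.57 and -0.52 in the *Dnmt1* KO libraries, progenitor markers at -0.72 and -0.67, blood markers at -2.11 and -2.09 and markers of the sorted SST cells at 0.56 and 0.57.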

How the data were processed

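RNA of tdTomato-positive cells was measured in 2 control and 2 *Dnmt1* KO libraries, grouped by the sample labels. According to the methods and labels, the authors used Trim Galore for trimming, STAR for alignment to GRCm39, Salmon for quantification and DESeq2 1.32.0 for normalization. The deposited signal is a normalized count, that is, reads scaled by 1 factor per library, and all 89965 values above 0 were whole multiples to within 0.0001 of a read. The annotation release and the strand setting are not given in the sources used here. The 4 library columns were used. No columns of the authors' own comparisons were used.

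After log2(x + 1) transformation, genes averaging 10 or more were tested by limma 3.58.1 (R 4.3.3), with a prior variance that depends on expression, genotype as the only term and Benjamini-Hochberg adjustment over the 14323 genes tested at 0.05. Fold changes on this scale understate the change of genes with few reads. With 2 libraries per genotype no permutation test of 1 gene can go below 0.05. Recovered reads were tested with edgeR 4.0.16, DESeq2 1.42.0 and limma-voom. Other alternatives were the pseudocount, the filter, TMM and quantile scaling, limma without the trend, removal of trends over transcript length and GC content, the replicate number as a block, and leaving out any 1 library, in which case the remaining single library was assumed to vary like the others. The smallest p-values were far smaller with the block and without a *Dnmt1* KO library than in the main fit, so a pass there says little. Motifs were searched with Python 3.11.15, and gene positions and lengths came from GENCODE for GRCm39. Libraries held 6970247 to 8376711 recovered reads. Nothing says that pools were separate litters. Limma's p-values combine the spread of each gene between these libraries with the prior variance, which is drawn from all genes tested.

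The 46 genes were all named, with the called gene of largest rise and fall in each further list and every gene of a list of 3. Some other genes of the further lists were named as well. The genes and lists were chosen with earlier results of these data known.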

Additional observations from a re-analysis of the deposited data

How the results depend on the processing

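Under all 16 alternatives, 0 of the 46 genes were called higher and the sign of each gene tested stayed negative. *Cdca5* was not tested with the filter at 50. The number called lower (39) stayed within 36 to 41 with pseudocounts of 0.5 and 10, filters at 1 and 50, TMM and quantile scaling, edgeR, limma-voom, removal of trends over transcript length and GC content, and the replicate block. It was 23 with DESeq2 and 0 with limma without the variance trend, which called 0 of all genes tested (smallest adjusted p 0.0592) while 39 of the 46 had an unadjusted p below 0.05. With each library left out in turn it was 25 to 41, and 25 without control replicate 1. The median log2 fold change of the members tested (-0.66) was -0.63 with a pseudocount of 10, -0.61 with quantile scaling and -0.70 to -0.60 with each library left out. Reads of genes with few counts limit the rest, since *Cdca5* had 16 to 49 per library.

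Counts of the further lists called lower moved as follows. DESeq2 gave 0 for the inner centromere, outer kinetochore, anaphase promoting complex and condensin II lists, 1 for entry regulators, 4 for spindle genes, 5 for kinesins, 5 for G1 genes, 9 for DNA replication and 24 for all lists, and limma without the trend gave 0 for each list, and 0 cohesin genes higher. Quantile scaling gave 0 inner centromere, 0 condensin II, 1 anaphase promoting complex and 1 cohesin gene lower, and TMM gave 2 inner centromere genes. Removing trends over length and GC content gave 1 anaphase promoting complex gene and 2 cohesin genes lower, and 2 cohesin genes higher. With each library left out, counts were 0 to 4 for the inner centromere, 0 to 5 for the outer kinetochore, 6 to 9 for kinesins, 1 to 8 for entry regulators, 4 to 8 for spindle genes, 0 to 2 for the anaphase promoting complex, 0 to 1 for condensin II, 0 to 1 for cohesin lower and 1 to 2 for cohesin higher, 9 to 15 for DNA replication, 4 to 9 for G1 genes and 26 to 55 for all lists. All lists fell to 26 without control replicate 2 and to 32 without control replicate 1. The cause was not tested. With the longest annotated transcript, the median level per kilobase in control was 63.6 in place of 77.3.

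The replicate numbers share no stated origin, and deviations of same-numbered libraries did not go together (r = -0.0847 across genes, which are not independent replicates). With the replicate block, 41 of the 46 genes were called lower, and 4 inner centromere, 10 entry regulator and 2 condensin II genes.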
